A study of Mus musculus with 6 samples.

Results

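Resident Kupffer cell markers were followed in liver RNA of mice whose Atg14 gene was targeted in hepatocytes. The set held 10 named genes of the 56350 gene IDs in the deposited count table: Clec4f, Vsig4, Timd4, Marco, Folr2, Cd163, Adgre1, Cd5l, Id3 and Spic. They were taken by symbol, by matching each Ensembl ID without its version to GENCODE mouse M21, and all 10 were found. All 10 also passed the filter on low counts, and each reached a counts-per-million (CPM) value of 1 in all 6 libraries, so none entered the test through a single group.

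The tested group was HepKO, 3 liver libraries labelled as a hepatocyte-specific Atg14 knockout, and it was set against WT, 3 liver libraries labelled wild-type. Each library is bulk polyA RNA of liver tissue, so every count sums over all cell types. Neither the Cre driver, the strain, the age nor the sex of the mice is stated in the sources used here, and the labels do not say whether each library is a mouse of its own. The p-values therefore cover the spread among these 6 libraries, which may be technical. Atg14 encodes a subunit of the autophagy-specific phosphatidylinositol 3-kinase complex. Its mRNA was at 5.66, 8.44 and 7.95 CPM in HepKO replicates 1 to 3, against 20.9, 22.2 and 21.0 CPM in WT replicates 1 to 3.

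Kupffer cells are the resident macrophages of the liver sinusoids. They capture particles, microbes and spent red cells from portal and systemic blood through scavenger, lectin and complement receptors, and in mice they are kept by signals from sinusoidal endothelial cells, stellate cells and hepatocytes. Clec4f is the gene most restricted to mouse Kupffer cells, Timd4 marks those of embryonic origin, and Adgre1 (F4/80) marks mouse macrophages more widely. Id3 is also expressed by other liver cells.

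Library totals were 33145684 to 48951937 counts. HepKO replicate 1 stood apart from the other 5 libraries in its sex-linked transcripts, with 30377 counts of Xist against 2 to 22 in the others and 3 counts of Ddx3y against 2596 to 3482. Xist RNA is made by cells with an inactive X chromosome, and Ddx3y lies on the Y chromosome. Values that rest on HepKO replicate 1 are therefore given with and without that library. The hepatocyte markers Alb, Apoa1, Ttr, Apob, Cps1 and Ass1 fell (of these, Apoa1 and Apob were not called with library totals or on leaving out some single libraries), and together took 42533 to 52581 CPM in HepKO libraries and 96007 to 120980 CPM in WT libraries. Fewer cells of a type and less RNA per cell cannot be told apart in bulk samples.

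Promoter windows of 3 markers are shown because these genes carry the contrast described below: Clec4f as the most restricted Kupffer cell marker, Cd5l as the marker with the highest level, and Cd163 as the marker that went the other way. Each window runs from 250 bases before to 50 bases after the RefSeq start site (GRCm38.p6). RefSeq windows were matched for 9 of the 10 markers, all but Adgre1. Capitals mark, on either strand, the letters GAGGAA (core of sites of the macrophage factor PU.1), TGCTGA (half-site of MAF factors), AGGTCA (half-site of nuclear receptors such as LXR) and TGGGAA (core of sites of the Notch mediator RBPJ).
Clec4f, chr6:83656067-83656366, minus strand: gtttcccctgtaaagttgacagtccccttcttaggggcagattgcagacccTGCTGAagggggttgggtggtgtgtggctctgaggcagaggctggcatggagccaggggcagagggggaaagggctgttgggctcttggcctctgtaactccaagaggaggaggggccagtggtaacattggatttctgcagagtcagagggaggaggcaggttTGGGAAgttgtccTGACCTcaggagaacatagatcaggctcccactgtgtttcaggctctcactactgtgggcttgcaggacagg
Cd5l, chr3:87357631-87357930, plus strand: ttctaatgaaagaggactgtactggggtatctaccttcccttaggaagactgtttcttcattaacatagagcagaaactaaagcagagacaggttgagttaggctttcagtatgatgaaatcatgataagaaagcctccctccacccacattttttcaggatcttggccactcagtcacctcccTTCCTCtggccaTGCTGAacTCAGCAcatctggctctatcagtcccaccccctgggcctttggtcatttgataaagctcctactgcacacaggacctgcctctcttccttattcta
Cd163, chr6:124304401-124304700, plus strand: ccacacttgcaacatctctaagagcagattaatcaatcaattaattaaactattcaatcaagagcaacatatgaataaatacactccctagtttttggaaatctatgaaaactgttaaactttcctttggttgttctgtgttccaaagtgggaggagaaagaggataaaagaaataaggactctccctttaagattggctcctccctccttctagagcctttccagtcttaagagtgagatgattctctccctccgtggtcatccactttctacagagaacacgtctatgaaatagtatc

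The Cd5l window held 1 PU.1 core and 2 MAF half-sites that face each other across 2 bases, the pair beginning 54 bases before the start site. The Clec4f window held 1 MAF half-site, 1 nuclear receptor half-site and 1 RBPJ core. None of the 4 letter strings was found in the Cd163 window. Among 32851 promoter windows of the same length, 28.3% held the PU.1 core, 19.5% the MAF half-site, 16.3% the nuclear receptor half-site and 25.6% the RBPJ core. The paired arrangement TGCTGANNTCAGCA, searched after the Cd5l window had been seen, was found in 2 windows of all 32851, the Cd5l window included (0.00609%). A match is a description of letters and not a binding site, and its absence says nothing about the factor.

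Most of the markers were higher in HepKO livers, and Cd163 was lower. By edgeR's quasi-likelihood test with Benjamini-Hochberg adjustment over 16051 genes, 8 of the 10 markers rose, 1 fell and 1 was not called at an adjusted p (FDR) under 0.05. Over all genes tested, 19.5% were called higher and 18.7% lower. Groups did not overlap for 6 markers higher and 1 lower in HepKO, against 27.1% and 26.4% of all genes. The log2 fold change of HepKO over WT (log2FC) had a median of 1.37 over the 10 markers and 0.01 over all genes tested. Fold changes are relative to scaling by the trimmed mean of M-values (TMM). With library totals and no scaling factors the median of all genes was 0.52, 9 markers were called higher and 0 lower, and 46.3% of all genes were called higher and 5.85% lower. Without HepKO replicate 1, 6 markers were called higher and 1 lower, against 16.3% and 17.5% of all genes.

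**Figure D1:**
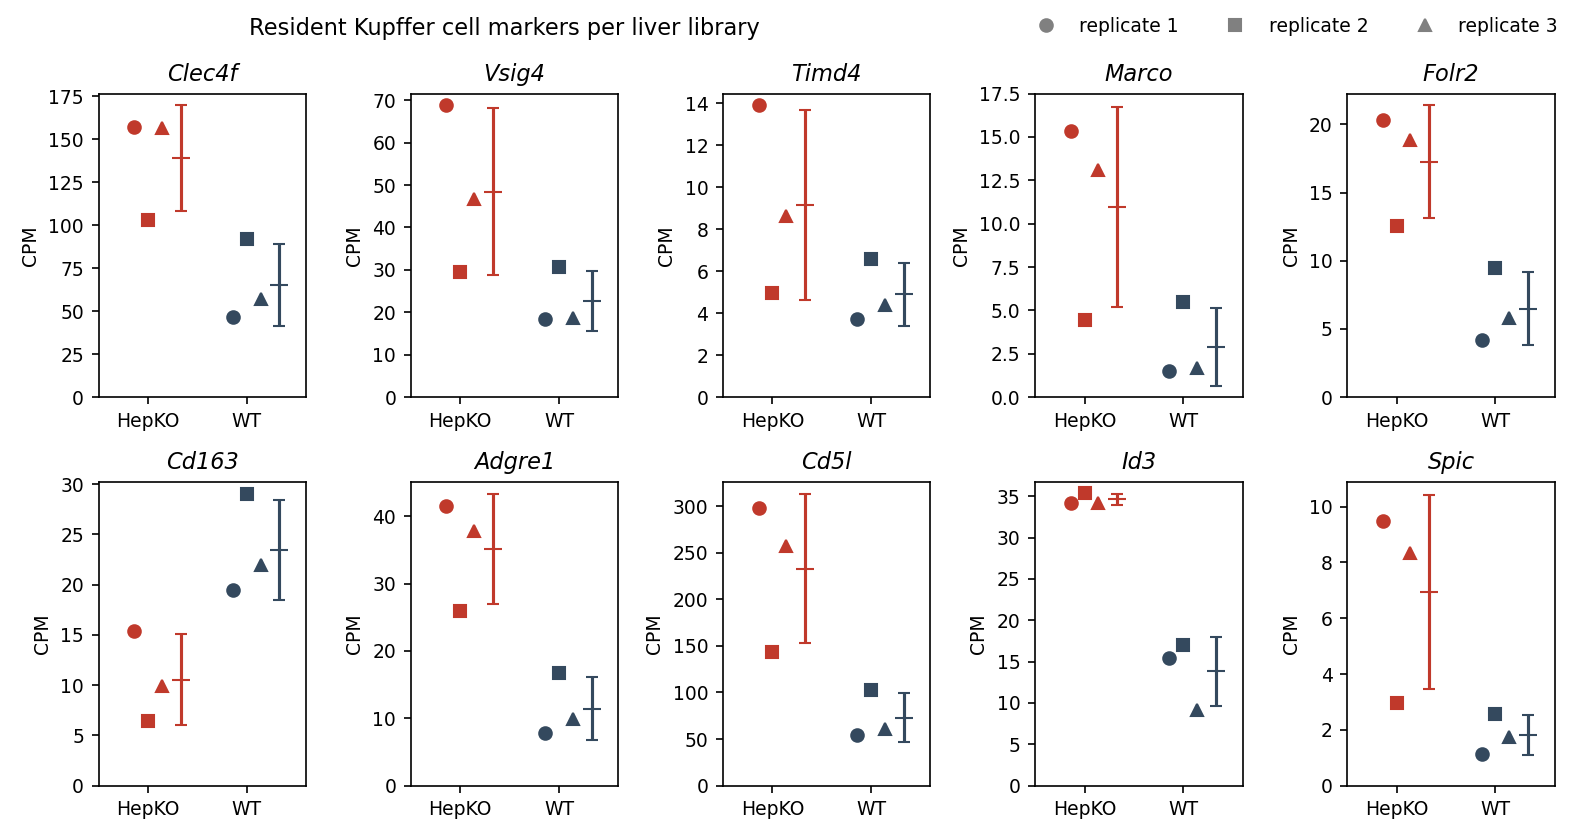
Level of each marker in each liver library, in CPM on TMM-scaled totals. Symbols are libraries by replicate number, with HepKO left and WT right in each panel, and bars give the mean ± SD of 3 libraries. Groups do not overlap for 7 of the 10 markers, and Cd163 is the marker whose HepKO libraries all lie below the WT libraries.

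Clec4f encodes a C-type lectin of the Kupffer cell surface that binds glycans and captures desialylated platelets. The gene (ENSMUSG00000014542.3) lies on the minus strand at chr6:83644542-83656187 (GRCm38, the assembly of the submitters' mm10). It was at 157, 103 and 157 CPM in HepKO replicates 1 to 3, against 46.7, 91.8 and 57.0 CPM in WT replicates 1 to 3. All HepKO libraries lay above all WT libraries, although HepKO replicate 2 and WT replicate 2 came close to each other. Clec4f rose 2.13-fold (log2FC 1.09 ± 0.27 SE, FDR 0.0140, edgeR). Without WT replicate 3 the call was lost at nearly the same fold (log2FC 1.02, FDR 0.0578, edgeR).

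Vsig4 encodes CRIg, a complement receptor with which Kupffer cells take up opsonised bacteria from blood. The gene (ENSMUSG00000044206.3) lies on the X chromosome, on the minus strand at chrX:96247203-96293438. Its levels were 68.9, 29.6 and 46.8 CPM in HepKO replicates 1 to 3 and 18.5, 30.7 and 18.7 CPM in WT replicates 1 to 3. HepKO replicate 2 lay below WT replicate 2, so the groups overlapped. Vsig4 rose 2.14-fold (log2FC 1.10 ± 0.32, FDR 0.0278, edgeR). The highest library was HepKO replicate 1, the one with Xist RNA. Without it the difference was smaller and missed the threshold (log2FC 0.74, FDR 0.0730, edgeR), and leaving out HepKO replicate 3, WT replicate 1 or WT replicate 3 also ended the call (FDR 0.0637 to 0.0943).

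Timd4 encodes TIM-4, a phosphatidylserine receptor for dying cells that in mouse liver marks Kupffer cells of embryonic origin. The gene (ENSMUSG00000055546.6) lies on the plus strand at chr11:46810800-46844332. It was at 13.9, 4.94 and 8.61 CPM in HepKO libraries, against 3.71, 6.57 and 4.39 CPM in WT libraries. The groups overlapped, and Timd4 was the marker not called (log2FC 0.91 ± 0.38, FDR 0.0969, edgeR). The value depended on single libraries: the log2FC was 0.46 without HepKO replicate 1 (FDR 0.332, edgeR) and 1.20 without HepKO replicate 2, where it passed (FDR 0.0292, edgeR). It was also called with DESeq2 (FDR 0.0392) and with library totals (log2FC 1.41, FDR 0.0174, edgeR).

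Marco encodes a class A scavenger receptor with a collagenous stalk that binds bacteria and particles. The gene (ENSMUSG00000026390.7) lies on the minus strand at chr1:120474538-120505024. Levels were 15.3, 4.43 and 13.1 CPM in HepKO libraries and 1.49, 5.46 and 1.67 CPM in WT libraries. The low HepKO library and the high WT library, replicate 2 in each group, crossed over. Marco rose 3.79-fold on average (log2FC 1.92 ± 0.60, FDR 0.0370, edgeR), but the call ended with limma-voom (FDR 0.0649) and on leaving out HepKO replicate 1 (FDR 0.0984), HepKO replicate 3 (FDR 0.0966), WT replicate 1 (FDR 0.104) or WT replicate 3 (FDR 0.117), each by edgeR.

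Folr2 encodes folate receptor beta, which marks resident macrophages of several mouse tissues. The gene (ENSMUSG00000032725.10) lies on the minus strand at chr7:101839988-101857194. It was at 20.3, 12.6 and 18.9 CPM in HepKO libraries, against 4.19, 9.44 and 5.82 CPM in WT libraries, with no overlap. Folr2 rose 2.65-fold (log2FC 1.41 ± 0.31, FDR 0.00882, edgeR). An antisense gene, Gm10602, shares 975 of the 1546 exonic bases of Folr2, and the strand setting of the counting is not given in the sources used here. Gm10602 itself was counted at 0.812 to 1.58 CPM in HepKO libraries and 0.995 to 1.28 CPM in WT libraries, so the Folr2 value is uncertain to the extent that reads of that region were dropped or shared.

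Cd163 encodes the scavenger receptor for complexes of haemoglobin and haptoglobin. The gene (ENSMUSG00000008845.9) lies on the plus strand at chr6:124304656-124330527. Its levels were 15.3, 6.44 and 9.90 CPM in HepKO replicates 1 to 3 and 19.5, 29.1 and 21.9 CPM in WT replicates 1 to 3. Every HepKO library lay below every WT library. Cd163 fell 2.22-fold (log2FC -1.15 ± 0.30, FDR 0.0186, edgeR). Without HepKO replicate 1 the fall was steeper (log2FC -1.53). The call ended with library totals (log2FC -0.65, FDR 0.107, edgeR), without HepKO replicate 3 (log2FC -1.11, FDR 0.0611, edgeR) and without WT replicate 2 (log2FC -0.94, FDR 0.0644, edgeR), with the same sign each time.

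Adgre1 encodes F4/80, an adhesion receptor of mouse macrophages. The gene (ENSMUSG00000004730.15) lies on the plus strand at chr17:57358691-57483527. It was at 41.6, 25.9 and 37.8 CPM in HepKO libraries, against 7.80, 16.7 and 9.83 CPM in WT libraries. The groups did not overlap, and Adgre1 rose 3.06-fold (log2FC 1.61 ± 0.29, FDR 0.00390, edgeR). It was one of 4 markers, with Cd5l, Folr2 and Id3, whose call held under each of the 15 alternatives run.

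Cd5l encodes AIM (apoptosis inhibitor of macrophages), a secreted scavenger-like protein that is made by Kupffer cells and circulates bound to IgM. The gene (ENSMUSG00000015854.7) lies on the plus strand at chr3:87357881-87371073. It was at 298, 144 and 257 CPM in HepKO libraries, against 54.6, 103 and 60.7 CPM in WT libraries. The lowest HepKO library lay above the highest WT library. Cd5l rose 3.20-fold (log2FC 1.68 ± 0.32, FDR 0.00499, edgeR). Its promoter window is the one printed above with the facing MAF half-sites.

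The remaining pair of markers encode transcriptional regulators. Id3, an inhibitor of basic helix-loop-helix factors needed for Kupffer cell development in mice, lies on the plus strand at chr4:136143497-136145755 (ENSMUSG00000007872.3). It was at 34.2, 35.4 and 34.2 CPM in HepKO libraries, against 15.4, 17.0 and 9.10 CPM in WT libraries. It had the narrowest spread of the 10 markers among HepKO libraries, with a highest level 1.03 times the lowest. Id3 rose 2.50-fold (log2FC 1.32 ± 0.21, FDR 0.00224, edgeR), the lowest FDR of the markers. Spic, the Ets-family factor SPI-C of iron-recycling macrophages, lies on the minus strand at chr10:88674772-88685015 (ENSMUSG00000004359.16). It was at 9.48, 2.96 and 8.35 CPM in HepKO libraries and at 1.15, 2.56 and 1.75 CPM in WT libraries. The groups did not overlap, by a small margin between HepKO replicate 2 and WT replicate 2. Spic rose 3.79-fold (log2FC 1.92 ± 0.47, FDR 0.0146, edgeR), and its call ended with limma-voom (FDR 0.0525) and, by edgeR, without WT replicate 3 (FDR 0.0516).

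**Figure D2:**
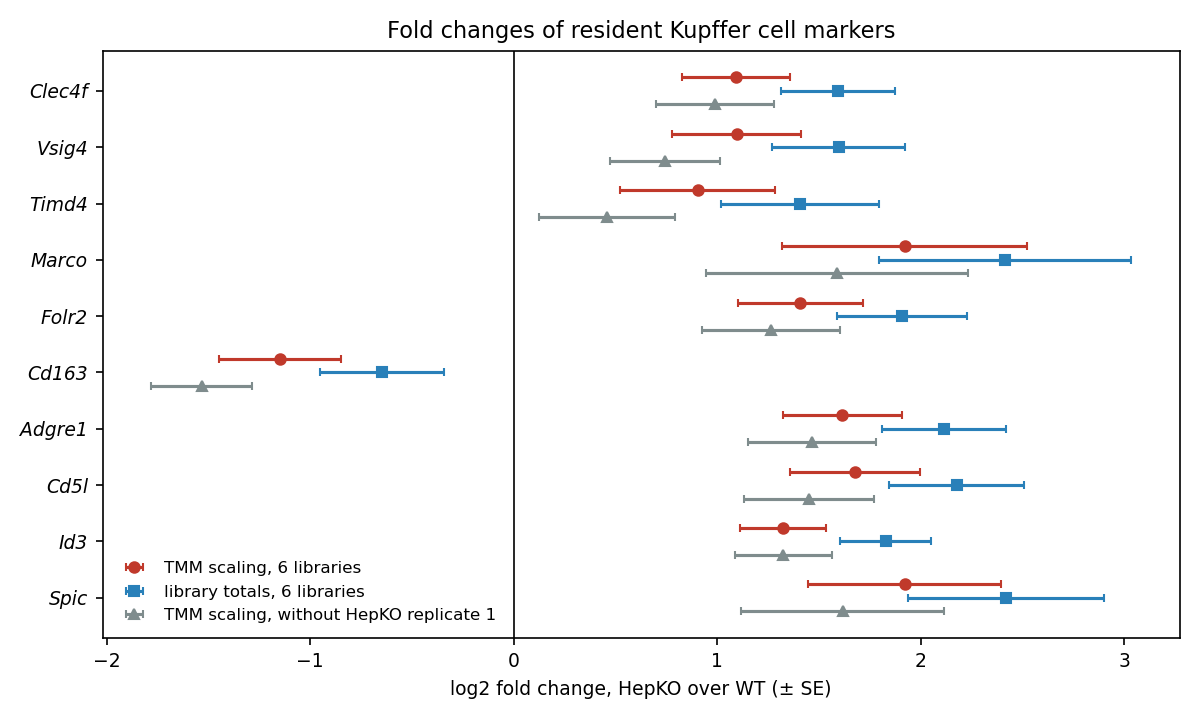
Log2 fold change of each marker, HepKO over WT, with its standard error: circles are TMM scaling over 6 libraries, squares are library totals, and triangles leave out HepKO replicate 1. Cd163 is negative under each setting shown and the other 9 markers are positive, while library totals move every value up by about the shift of the median of all genes, which is 0.52 there and 0.01 under TMM.

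The order of the marker levels was compared per kilobase of merged exons (RPKM on TMM-scaled totals), since genes of unlike length cannot be compared in CPM. Cd5l was the most abundant marker in each group, with a mean of 114 RPKM in HepKO livers and 35.7 RPKM in WT livers. Clec4f came next with 56.2 RPKM in HepKO livers and 26.4 RPKM in WT livers, followed by Vsig4 with 32.6 RPKM in HepKO livers and 15.3 RPKM in WT livers, and Id3 with 19.3 RPKM in HepKO livers and 7.72 RPKM in WT livers. Spic was the lowest, with 1.80 RPKM in HepKO livers and 0.474 RPKM in WT livers. Cd163 changed its place most: it ranked 9 of 10 in HepKO livers with 1.93 RPKM and 5 of 10 in WT livers with 4.30 RPKM. Of the neighbours in this order, Cd5l and Clec4f did not overlap in HepKO libraries but did in WT libraries, and Clec4f and Vsig4 overlapped in each group. From Id3 down to Marco in WT livers, each neighbouring pair (Id3, Cd163, Folr2, Adgre1, Timd4, Marco) overlapped, so those places are not separated. In HepKO livers each neighbouring pair from Marco down (Marco, Timd4, Cd163, Spic) overlapped too, so the size of the change in place of Cd163 is uncertain.

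The markers shared the order of the libraries. HepKO replicate 2 was the lowest HepKO library for 9 of 10 markers, all but Id3, and HepKO replicate 1 was the highest for the same count of 9. WT replicate 2 was the highest WT library for all 10 markers. For each of the 14 macrophage genes shared by resident and recruited cells, HepKO replicate 2 was also the lowest HepKO library. WT replicate 2 was the highest WT library for each as well, so this order is not particular to the resident markers. Over all genes tested, HepKO replicate 2 was lowest for 34.6% and WT replicate 2 highest for 31.7%. Within a group the highest library exceeded the lowest by 1.03 times (Id3) to 3.46 times (Marco) in HepKO, and by 1.49 times (Cd163) to 3.67 times (Marco) in WT. HepKO replicate 2 also stood out for cholangiocyte markers: Epcam, Sox9, Krt7 and Krt19 summed to 42.8 CPM there, against 13.0 and 19.0 CPM in the other HepKO libraries and 5.41 to 8.78 CPM in WT. The part of that difference in the low marker levels of HepKO replicate 2 was not tested.

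Ratios between markers of the same library do not depend on scaling, and they were taken to Clec4f after the levels had been seen. The ratio of Cd163 to Clec4f was 0.0977, 0.0624 and 0.0632 in HepKO replicates 1 to 3, against 0.418, 0.317 and 0.385 in WT replicates 1 to 3, which is 5.09-fold lower in HepKO. Cd163 was also lower without overlap relative to each of the other 8 markers. For Folr2, Adgre1, Cd5l, Id3 and Spic, as for Clec4f, this follows from levels that moved apart without overlap. For Vsig4 and Marco, whose levels overlapped, the ranges of the levels in each group also left no other outcome. The ratio to Timd4 alone could have come out otherwise. Of the 9 ratios, 3 were higher without overlap in HepKO. Cd5l over Clec4f was 1.90, 1.39 and 1.64 in HepKO libraries and 1.17, 1.12 and 1.07 in WT libraries. Adgre1 over Clec4f was 0.265, 0.251 and 0.241 in HepKO libraries and 0.167, 0.182 and 0.173 in WT libraries. Folr2 over Clec4f was 0.129, 0.122 and 0.120 in HepKO libraries and 0.0897, 0.103 and 0.102 in WT libraries. Vsig4, Timd4, Marco, Id3 and Spic gave ratios to Clec4f that overlapped between the groups. Of all other genes tested, 54.2% were lower without overlap relative to Clec4f in HepKO and 6.7% were higher, so a lower ratio alone is common. Each of these ratios has an exact 2-sided permutation p of 0.1 where the groups do not overlap, the smallest that 3 against 3 libraries allow (0.128 after adjustment over 23 ratios).

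**Figure D3:**
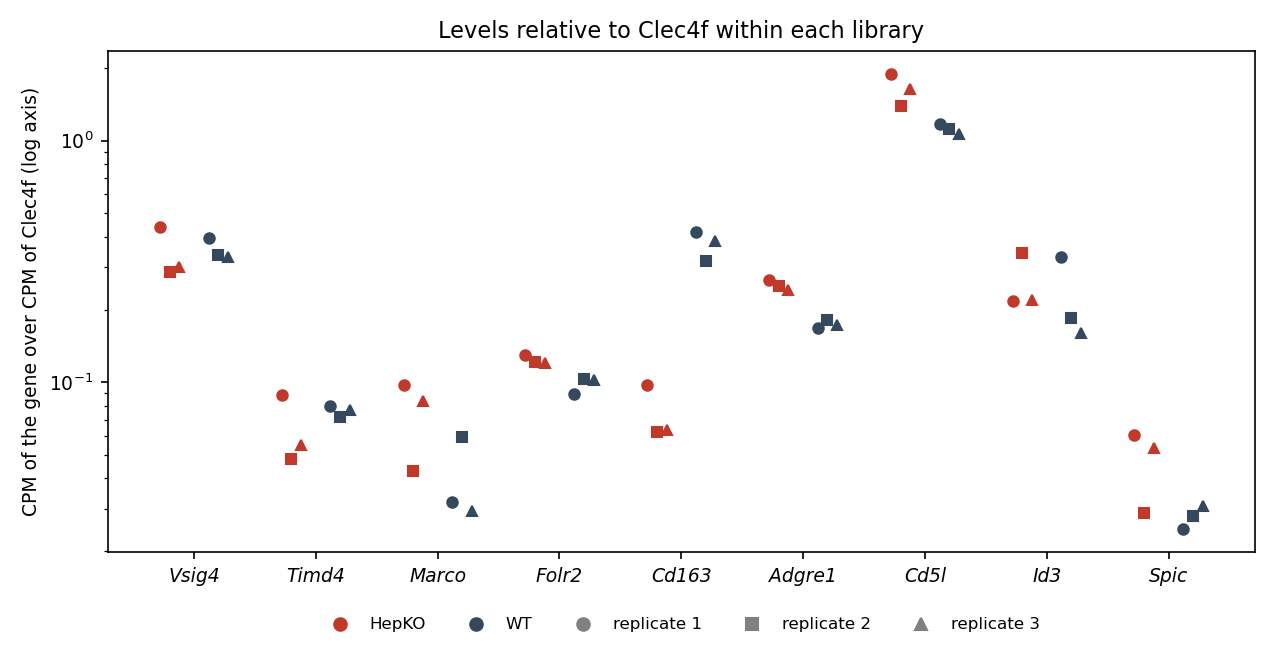
Ratio of the CPM of 9 markers to the CPM of Clec4f in the same library, on a log axis, with HepKO libraries left and WT libraries right for each gene. Cd163 is lower in HepKO libraries with no overlap, at 0.0624 to 0.0977 against 0.317 to 0.418 in WT, and Folr2, Adgre1 and Cd5l are higher with no overlap.

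Clec4f was then set against genes that resident and recruited macrophages share. Of 14 such genes 13 rose and 0 fell, with a median log2FC of 2.01. Cd68, a lysosomal glycoprotein of macrophages, averaged 41.4 ± 9.88 CPM in HepKO livers and 7.47 ± 2.69 CPM in WT livers (SD, n = 3 each). The other genes at the head of that list, the lysozyme gene Lyz2 (log2FC 1.75) and the complement genes C1qa (log2FC 2.04) and C1qb (log2FC 1.83), rose as well. Mertk, a receptor for dying cells, was not called over all 6 libraries (log2FC 0.34 ± 0.17, edgeR) but was without HepKO replicate 2 (log2FC 0.48, FDR 0.0429, edgeR) and with library totals (log2FC 0.85). Clec4f over Cd68 was 3.09, 3.32 and 3.70 in HepKO libraries, against 7.72, 8.67 and 9.83 in WT libraries. Relative to 13 of the 14 shared genes Clec4f was lower in HepKO without overlap, by 1.53-fold (C1qc) to 2.59-fold (Cd68), and relative to Mertk it was higher. Over all other genes tested, Clec4f was lower without overlap relative to 6.7% and higher without overlap relative to 54.2%. The summed level of the 10 resident markers was 369 to 674 CPM in HepKO libraries and 173 to 312 CPM in WT libraries, while the 14 shared genes summed to 666 to 980 CPM in HepKO libraries and 189 to 336 CPM in WT libraries.

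Genes of monocyte-derived and lipid-associated macrophages were mostly higher in HepKO livers as well. Of 15 listed 14 were tested, 12 rose and 0 fell, with a median log2FC of 2.73. The monocyte chemokine receptor Ccr2 was at 12.8, 13.1 and 19.6 CPM in HepKO libraries and 1.79, 4.54 and 0.848 CPM in WT libraries. Trem2 had 4 counts in HepKO replicate 1 and 0 in the other 5 libraries and was not tested. Whether such a near-empty entry reflects the tissue or the counting is not known here. Some members of that list, such as Spp1, Cd9 and Lpl, are also expressed by other liver cells.

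**Figure D4:**
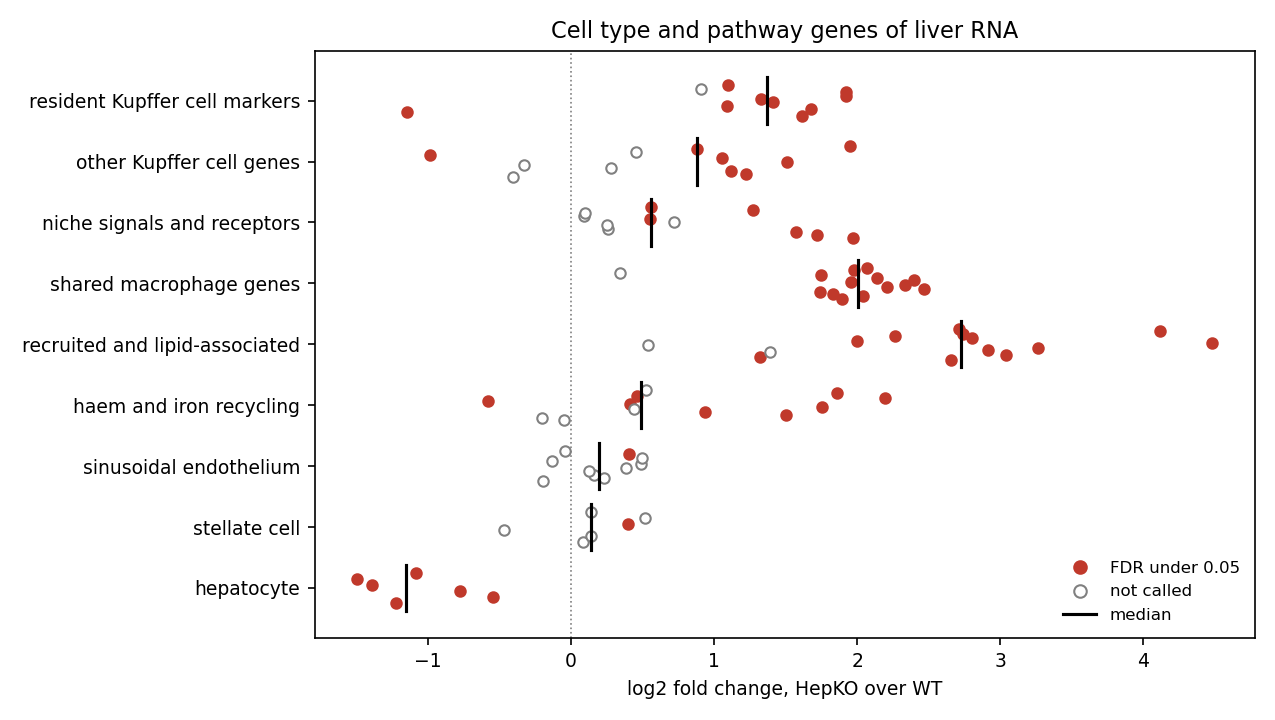
Log2 fold change, HepKO over WT, of tested genes in 9 lists, with filled points for genes called at an FDR under 0.05, open points for genes not called and a bar at the median of each list. The medians are 1.37 for the resident markers, 2.01 for shared macrophage genes, 2.73 for recruited and lipid-associated macrophage genes, 0.20 for sinusoidal endothelium and -1.15 for hepatocyte markers.

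Other genes known to be high in Kupffer cells went the way of the markers in part. Of 12 listed 11 were tested, 6 rose and 1 fell, with a median log2FC of 0.88. Clec1b, the lectin CLEC-2, was at 28.8, 16.9 and 24.7 CPM in HepKO libraries, against 10.3, 14.7 and 7.37 CPM in WT libraries, and rose (log2FC 1.12 ± 0.28, FDR 0.0150, edgeR), a call lost without WT replicate 1 at nearly the same size (log2FC 1.08). The ficolin gene Fcna was not called (log2FC 0.28, FDR 0.441, edgeR), but was with library totals (log2FC 0.78, FDR 0.0383). The complement gene C6, which hepatocytes also make, was at 30.9, 283 and 276 CPM in HepKO replicates 1 to 3, against 338, 205 and 240 CPM in WT replicates 1 to 3, with HepKO replicate 1 far below the other 5 libraries. Paqr9 was the gene of that list that fell (log2FC -0.99 ± 0.27, FDR 0.0216, edgeR). It was at 125, 198 and 278 CPM in HepKO replicates 1 to 3, against 465, 347 and 381 CPM in WT replicates 1 to 3. Its lowest libraries, HepKO replicate 1 and WT replicate 2, were those where most markers were highest. Which cells its RNA came from was not tested. The Paqr9 call was lost without HepKO replicate 2 (FDR 0.0653), WT replicate 1 (FDR 0.0666) or WT replicate 3 (FDR 0.0522) and with library totals (log2FC -0.48, FDR 0.163). Cd209f, with 4 counts in HepKO replicate 1 and 0 elsewhere, was not tested. Without WT replicate 1, 3 genes of this list were called higher in place of 6.

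Of 8 listed transcription factors of Kupffer cells and other macrophages, 4 rose. Spi1, which encodes PU.1, the factor that sets myeloid fate, was at 15.8, 9.58 and 16.1 CPM in HepKO libraries and 2.63, 5.57 and 3.16 CPM in WT libraries (log2FC 1.86 ± 0.32, FDR 0.00318, edgeR). Zeb2, a repressor that maintains macrophage identity (log2FC 1.17), Irf8, an interferon regulatory factor of myeloid cells (log2FC 1.45), and Id1, a close relative of Id3 (log2FC 0.97), rose too, but the Id1 call held on leaving out WT replicate 2 and was lost on leaving out any other single library (FDR 0.0542 to 0.0927). Nr1h3, which encodes the oxysterol receptor LXR alpha, was not called (log2FC -0.18, FDR 0.251, edgeR), its sign turned with library totals (log2FC 0.32, FDR 0.0428), and hepatocytes express it as well.

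Among signals that maintain Kupffer cells, the growth factor gene Csf1 and its receptor gene rose. Csf1, which macrophages need to survive, was at 27.7, 30.3 and 28.2 CPM in HepKO libraries and 8.20, 9.27 and 8.63 CPM in WT libraries (log2FC 1.72 ± 0.11, FDR 8.97e-05, edgeR). Its receptor gene Csf1r was at 95.9, 64.0 and 97.5 CPM in HepKO libraries, against 18.1, 44.7 and 23.5 CPM in WT libraries (log2FC 1.57 ± 0.33, FDR 0.00723, edgeR). Il34, the second ligand of that receptor, was at 2.56, 4.23 and 2.13 CPM in HepKO libraries and 2.09, 1.81 and 1.52 CPM in WT libraries. Its groups did not overlap, but it was not called (log2FC 0.72, FDR 0.124, edgeR) except with library totals (log2FC 1.23, FDR 0.0169). The Notch ligand Dll4 was not called (log2FC 0.26, FDR 0.538, edgeR). Acvrl1 (log2FC 1.97, FDR 0.00131, edgeR) and Tgfb1 (log2FC 1.27, FDR 0.00187, edgeR) also rose, each without overlap between the groups. Over the 11 niche genes listed, 6 rose and 0 fell, with a median log2FC of 0.56. Of these, Notch1 lost its call without HepKO replicate 1, HepKO replicate 2, WT replicate 1 or WT replicate 3 (FDR 0.0774 to 0.0866, edgeR). Tgfbr1 lost its call without HepKO replicate 2, HepKO replicate 3 or WT replicate 3 (FDR 0.0551 to 0.0643, edgeR) and with the replicate block (FDR 0.0522, edgeR).

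Genes of haem and iron recycling, the process in which CD163 and SPI-C take part, mostly rose. Of 12, 7 rose and 1 fell (median log2FC 0.49). Hmox1, which degrades haem, averaged 54.5 ± 18.6 CPM in HepKO livers and 16.1 ± 7.05 CPM in WT livers (SD, n = 3 each; log2FC 1.76, FDR 0.00540, edgeR). The iron exporter Slc40a1 (log2FC 0.46, FDR 0.0387), the phagosomal metal transporter Slc11a1 (log2FC 2.19, FDR 0.00148) and the haem transporter Slc48a1 (log2FC 1.86, FDR 1.19e-04) rose, each by edgeR. The Slc40a1 call was lost without any one library except HepKO replicate 2 (FDR 0.0634 to 0.133). Lrp1, the receptor for complexes of haem and haemopexin, which hepatocytes express strongly, fell (log2FC -0.58, FDR 0.0274, edgeR), a call lost without WT replicate 2 (FDR 0.0740) or WT replicate 3 (FDR 0.106) and with library totals (log2FC -0.07).

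Markers of other liver cells were set beside these values. Of 10 sinusoidal endothelial markers 1 was called: Stab1, which Kupffer cells also express, rose (log2FC 0.40, FDR 0.0434, edgeR), while Stab2, Clec4g and Lyve1 were not called (log2FC -0.04, -0.20 and 0.39). With library totals 7 of the 10 were called higher, Stab2 among them (log2FC 0.47), and the Stab1 call was lost without HepKO replicate 1, HepKO replicate 2, WT replicate 1 or WT replicate 3 (FDR 0.110 to 0.136). The endothelial list summed to 265 to 342 CPM in HepKO libraries and 229 to 290 CPM in WT libraries. Of 6 stellate cell markers 1 was called, Hgf, which rose (log2FC 0.40, FDR 0.0484, edgeR), a call lost without any one library except WT replicate 2 (FDR 0.0994 to 0.138). Neutrophil markers were low, with 3 of 6 tested and all 3 higher, and a summed level of 6.90 to 21.2 CPM in HepKO libraries and 1.73 to 4.68 CPM in WT libraries. Without HepKO replicate 3, and likewise with the replicate block, 1 of the 3 was called, S100a8 (FDR 0.0643 without that library) and S100a9 (FDR 0.0508) losing their calls, and S100a9 also lost its call without WT replicate 3 (FDR 0.0541). Ly6g, a defining marker of neutrophils, had 6 counts in HepKO replicate 3 and 0 elsewhere. Of 6 dendritic cell markers 2 rose, Xcr1 and Clec9a, a count of 0 without HepKO replicate 1, HepKO replicate 3 or WT replicate 1, with limma-voom or with the replicate block, of 1 without WT replicate 3, and of 4 with library totals. Xcr1 also lost its call without WT replicate 2 (FDR 0.0995). Of 5 tested T and NK cell markers 2 rose, and of 5 B cell markers 0 rose and 1 fell, Ighm, whose call was lost without any one library except HepKO replicate 1 and with library totals (log2FC -0.08). Of 4 cholangiocyte markers 2 rose, Epcam and Sox9 (median log2FC of the list 1.68). Without HepKO replicate 2 the median was 0.28 and Epcam was not called (FDR 0.191), and the Epcam call was also lost without any one WT library (FDR 0.0733 to 0.123), with limma-voom (FDR 0.174) and with the replicate block (FDR 0.0580). Of 5 tested erythroid genes 3 fell (median log2FC -0.43, turning to 0.08 with library totals). The list summed to 101 to 132 CPM in HepKO libraries and 189 to 273 CPM in WT libraries. Most of that difference lay in Alas2, which averaged 23.8 CPM in HepKO livers and 111 CPM in WT livers (log2FC -2.23, FDR 0.00533, edgeR). Of the globin genes, Hba-a1 and Hbb-bt fell less (log2FC -0.47 and -0.43). Hba-a2 and Hbb-bs were not called (log2FC -0.29 and -0.28). Without HepKO replicate 2, HepKO replicate 3, WT replicate 2 or WT replicate 3, Hba-a1 and Hbb-bt lost their calls and Alas2 kept its own. The same held with library totals and with the replicate block. Hbb-bt also lost its call without HepKO replicate 1 (FDR 0.0627) or WT replicate 1 (FDR 0.0799). The part of these cells in the levels of the resident markers was not tested.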

How the data were processed

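Bulk RNA-seq of 6 mouse liver samples was used, 3 HepKO and 3 WT. The deposited table holds unnormalized whole-number counts for each gene ID. Tools named per the submitters' processing notes were STAR 2.7.11a, bcl2fastq, Subread 2.0.0 with featureCounts, and edgeR 3.40.2, and the build named was mm10. How these were ordered and set is not stated, nor is the annotation or the strandedness used for counting. Of 56350 gene IDs, 55394 matched GENCODE M21 (GRCm38), and the rest held at most 0.0250% of a library.

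HepKO was compared with WT using edgeR 4.0.16 under R 4.3.3 (quasi-likelihood F test) with TMM factors, filterByExpr (16051 genes kept) and no covariate, called at an FDR under 0.05. The SE was the size of the log2 fold change over the square root of F. CPM used TMM-scaled totals. DESeq2 1.42.0, limma-voom (limma 3.58.1) and the other alternatives are given below. The procedure was tested on simulated data with the same spread for every gene and few changed genes, which did not test the choice of scaling. Libraries of a group differed by more than sampling noise (24.2 to 117 as chi-square divided by its degrees of freedom).

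The markers and the other lists were chosen with earlier results of these data known. All markers are named. Of the other lists, the 4 leading genes in list order are named where room allowed, with genes of a direction that had 5 or fewer calls; other genes were named after their values were seen. The symbol Tf of the hepatocyte list matched no ID. Sequences are RefSeq's (GRCm38.p6). One gene of the transcription factor list is not reported here.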

Additional observations from a re-analysis of the deposited data

How the results depend on the processing

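Of 15 alternatives, none turned the direction of any of the 10 markers. With library totals 7431 genes were called higher and 939 lower in place of 3125 and 3006, and 0 markers were lower. At an FDR under 0.01, 1751 genes were higher and 1693 lower, and 4 markers were higher and 0 lower. Leaving out each library gave 2337 to 2816 genes higher and 2055 to 2896 lower, 4 to 9 markers higher and 0 to 1 lower; 4 was without WT replicate 3, and 0 lower without HepKO replicate 3 or WT replicate 2. Correlations of deviations between HepKO and WT libraries were -0.12, -0.07 and 0.00 for shared numbers 1 to 3, and -0.12 to 0.18 for unlike numbers. With 3 libraries per group they cannot settle whether the replicate numbers pair the libraries, and the labels do not say. With the replicate block 2569 genes were higher and 2502 lower, and 5 markers were higher and 1 lower, Vsig4, Marco and Spic (FDR 0.0797, 0.104 and 0.0611) being lost. Where 1 library is left out of a group, the fit pools the spread over groups. Among the other lists, library totals called 7 macrophage transcription factors, 10 niche genes, 7 endothelial markers and 4 stellate markers higher in place of 4, 6, 1 and 1, and ended the single falls of the other Kupffer cell and the haem lists. At an FDR under 0.01, 2 other Kupffer cell genes were called higher. The causes were not tested. Precision is limited by 3 libraries per group.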
